A study of Mus musculus with 6 samples.

Results

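The 10 genes described here encode proteins with tudor domains: Tdrd1, Tdrd3, Tdrd5, Tdrd6, Tdrd7, Tdrd9, Tdrd12, Tdrkh, Stk31 and Rnf17. They were chosen by symbol in GENCODE M21, the mouse gene annotation, and all 10 were found among the 55487 gene identifiers of the count table. Polyadenylated RNA was sequenced from testes of mice at postnatal day 19, with 3 control animals and 3 animals labelled dsfb. The title of the series gives the latter the SFB allele of Hormad1 and of Hormad2 on both chromosomes, and HORMAD proteins sit on the axes of meiotic chromosomes. The labels call the genotype of the other animals only "control", and give no strain and no meaning of SFB. Each library is of a whole testis, a mixture of germ cells and somatic cells, and each gene has 1 count for all of its transcripts.

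A tudor domain is a small fold with an aromatic pocket, which in germ granule proteins binds methylated arginine. In germ cells it docks such proteins onto the methylated arginines of PIWI proteins, which carry piRNAs, the small RNAs that silence transposons. Tudor proteins thereby gather PIWI proteins, helicases and nucleases in germ granules: the cement between mitochondria of spermatogonia and spermatocytes, and later the chromatoid body of spermatids. Of the 10, TDRD3 is not known as a germ granule protein: it is made in most tissues and works with a topoisomerase on RNA and DNA.

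All 10 genes were lower in dsfb testes, but by very different amounts. Tdrd6, the scaffold of the chromatoid body, fell 229-fold, while the next largest fall was 6.77-fold (Tdrd5) and the smallest 1.31-fold (Tdrkh, the mitochondrial anchor of piRNA trimming). The median log2 fold change of the 10 was -1.74, against 0.02 over all 19826 genes tested. Falls were common in these data: 36.2% of tested genes were called lower and 66.9% called in either direction (edgeR quasi-likelihood test, Benjamini-Hochberg adjusted p under 0.05). For all 10 the control and dsfb libraries did not overlap, as for 38.5% of tested genes in that direction, and for 9 of the 10 the fall was at least 2-fold, against 26.8% of tested genes. A fall of at least 4-fold was called in 18.3% of tested genes and in 3 of the 10 members, Tdrd6, Tdrd5 and Tdrd1. One of at least 100-fold was called in 5.39% of tested genes and, among the members, in Tdrd6 alone.

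**Figure D1:**
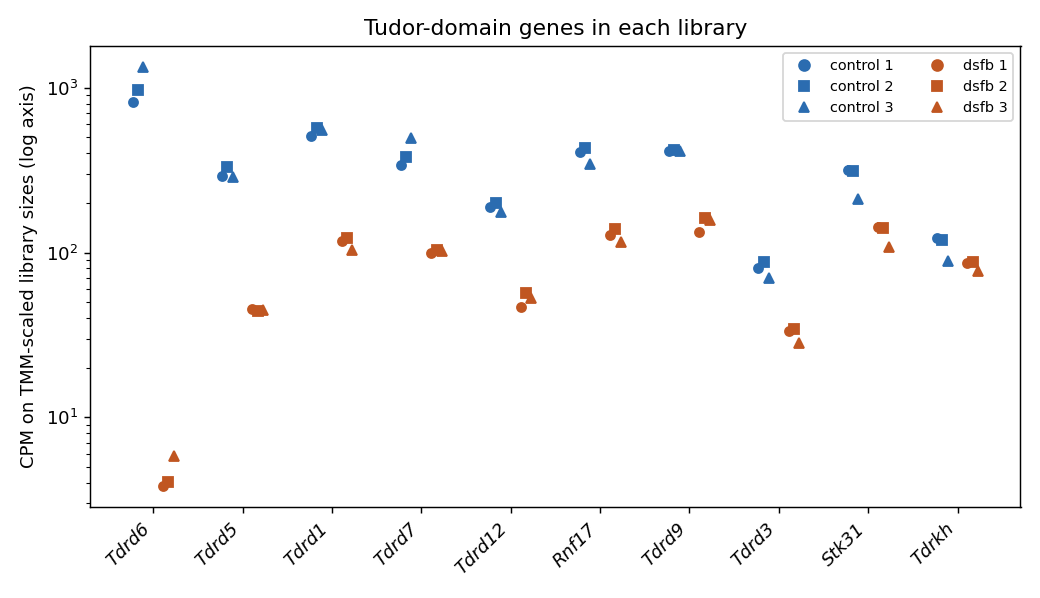
Level of each gene in each library, in CPM (counts divided by library size and multiplied by 1000000) with library sizes scaled by TMM, edgeR's trimmed mean of log ratios (log axis), ordered by the size of the fall. Blue points are the 3 control animals and orange points the 3 dsfb animals; for every gene the 3 dsfb points lie below the 3 control points, with Tdrd6 at 822 to 1339 CPM in control and 3.81 to 5.83 CPM in dsfb and Tdrkh at 89.1 to 122 and 77.5 to 88.2 CPM.

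Control libraries held 23983373 to 27707291 counted reads and dsfb libraries 15335130 to 17306363, and the members had at least 1505 reads in a control library and 70 in a dsfb library. Control replicate 3 stood apart from the other controls: its summed spermatid markers were at 789.7 CPM against 76.2 and 79.2, and its early meiotic markers at 2599 CPM against 3938 and 4094. All listed markers of Sertoli, Leydig and peritubular cells, macrophages and each germ cell stage had reads, as a testis should. Signs of cell make-up and handling moved with the groups. The 8 Sertoli markers all rose (1908 to 2623 CPM summed in control, 4563 to 4843 CPM in dsfb). Of 6 immediate early genes 5 rose (46.2 to 51.6 and 90.5 to 138 CPM), against 30.7% of all tested genes. Mitochondrial transcripts supplied 1.3 to 2.73% of reads in control and 3.17 to 4.17% in dsfb. The part of these signs in the results was not tested. In such bulk samples fewer cells of a type and less RNA per cell cannot be told apart. Transcripts of both targeted genes were present in every library (Hormad1 at 209 to 486 CPM in control and 217 to 246 CPM in dsfb, Hormad2 at 42.9 to 60.0 and 25.1 to 28.7 CPM). Hormad1 was not called (log2 -0.69, edgeR adjusted p = 0.0597), and Hormad2 fell 1.95-fold (log2 -0.96, edgeR adjusted p = 0.000757). Counts over whole genes do not check the alleles.

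The promoters of 8 of the 10 genes were in the RefSeq promoter table (GRCm38.p6), which held no window for Tdrd6 or Rnf17. For a gene with several windows in the table, the one nearest to the start of the gene in GENCODE was taken; Tdrd1 and Tdrd7 have 3 windows, Tdrd12 and Stk31 have 2, and the others 1. The window of Tdrd5 lies wholly inside the gene as GENCODE gives it and is not printed. Windows of 250 bases before the start are printed for Tdrd1, the member with the largest fall among those whose window lies outside the GENCODE gene, for Tdrd9, with a middle one, and for Tdrkh, with the smallest, because the size of the fall is what separates these genes. They lie at chr19:56825959-56826208, chr12:111971309-111971558 and chr3:94412994-94413243, all on the plus strand, and end at the GENCODE start for Tdrd1 and Tdrd9 and 29 bases before it for Tdrkh. Capitals mark AACNG, the core of the site bound by MYB factors, read on both strands (CNGTT on the other), with N any base. MYBL1, a MYB factor of spermatocytes, is known in mouse to act on piRNA loci and on genes of the piRNA pathway.
Tdrd1: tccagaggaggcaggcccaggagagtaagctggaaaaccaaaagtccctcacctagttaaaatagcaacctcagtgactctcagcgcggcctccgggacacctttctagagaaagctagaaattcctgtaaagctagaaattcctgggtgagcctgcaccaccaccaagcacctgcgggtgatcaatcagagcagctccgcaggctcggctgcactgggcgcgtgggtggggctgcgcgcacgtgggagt
Tdrd9: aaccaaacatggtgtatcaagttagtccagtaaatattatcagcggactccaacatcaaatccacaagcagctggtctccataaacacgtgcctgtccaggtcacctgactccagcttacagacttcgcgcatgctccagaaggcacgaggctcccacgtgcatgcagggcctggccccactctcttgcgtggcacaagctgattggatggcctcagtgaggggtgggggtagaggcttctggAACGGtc
Tdrkh: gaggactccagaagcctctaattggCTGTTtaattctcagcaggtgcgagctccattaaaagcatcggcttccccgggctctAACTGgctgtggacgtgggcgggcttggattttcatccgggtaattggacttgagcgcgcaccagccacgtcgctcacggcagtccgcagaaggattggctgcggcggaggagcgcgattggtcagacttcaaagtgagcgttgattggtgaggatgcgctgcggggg
The core was found 0 times in the printed window of Tdrd1 (up to 2 in its other windows), 1 time in that of Tdrd9 and 2 times in that of Tdrkh. Of the 8 windows taken 6 held it, with 5 copies in Tdrd7 (2 to 5 over its windows), and 74.2% of the 32851 windows in the table held it too. G and C made up 57.6, 54.8 and 58.4% of the printed windows, against a median of 52.4% over the table.

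Tdrd6 and Tdrd7 are known above all from the chromatoid body, which holds other tudor proteins too. Tdrd6 (ENSMUSG00000040140, chromosome 17, 43615335 to 43630299, minus strand, mm10) encodes the multi-tudor protein on which the architecture of the chromatoid body depends. Control replicates 1, 2 and 3 held it at 822, 969.7 and 1339 CPM and dsfb replicates 1, 2 and 3 at 3.81, 4.02 and 5.83 CPM; values of the other genes follow in the same order of animals. The lowest control library was thus far above the highest dsfb library. The log2 fold change was -7.84 (SE 0.28, edgeR adjusted p = 5.29e-07), and only 3.59% of tested genes had a lower one. Tdrd6 was not absent from dsfb testes, where 75, 70 and 108 reads were counted.

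Tdrd7 (ENSMUSG00000035517, chromosome 4, 45965334 to 46034761, plus strand), which joins LOTUS and tudor domains and takes part in remodelling the chromatoid body, fell far less. It was at 341, 378 and 493 CPM in control and at 98.7, 103 and 102 CPM in dsfb. The dsfb libraries were nearly level and the control libraries spread, the third being the highest for Tdrd7 as for Tdrd6. The fall was 3.99-fold (log2 -1.99, SE 0.14, edgeR adjusted p = 1.72e-05), or -1.86 on the log2 scale without control replicate 3. For Tdrd6 the value without that library was -7.65.

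Tdrd1, Tdrd9 and Tdrd12 serve the fetal piRNA cycle, in which PIWIL2 and PIWIL4 silence transposons in the male germ line, and are also made after birth. Tdrd1 (ENSMUSG00000025081, chromosome 19, 56826209 to 56870012, plus strand), the tudor partner of PIWIL2, was at 511, 567 and 558 CPM in control and at 117, 123 and 104 CPM in dsfb. It fell 4.75-fold (log2 -2.25, SE 0.10, edgeR adjusted p = 1.46e-06). Each group kept to a narrow range, and control replicate 3 lay between the other controls.

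Tdrd9 (ENSMUSG00000054003, chromosome 12, 111971559 to 112068854, plus strand), a helicase that acts with PIWIL4, was at 414, 421 and 415 CPM in control and at 134, 162 and 158 CPM in dsfb. It was the steadiest member over the control animals. The fall was 2.75-fold (log2 -1.46, SE 0.10, edgeR adjusted p = 1.13e-05). Tdrd12 (ENSMUSG00000030491, chromosome 7, 35469098 to 35537745, minus strand), a helicase-like partner of PIWIL2, was at 190.1, 199.6 and 176 CPM in control and at 46.5, 56.7 and 53.0 CPM in dsfb. It fell 3.62-fold (log2 -1.86, SE 0.10, edgeR adjusted p = 4.45e-06). For both helicase genes dsfb replicate 1 was the lowest of its group, and the groups were well apart.

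Tdrd5, Tdrkh and Rnf17 act on piRNAs of pachytene spermatocytes. Tdrd5 (ENSMUSG00000060985, chromosome 1, 156255296 to 156303664, minus strand), whose protein binds and processes pachytene piRNA precursors, was at 292, 329 and 288 CPM in control and at 45.3, 44.4 and 44.6 CPM in dsfb. The dsfb animals were almost equal. The fall was 6.77-fold (log2 -2.76, SE 0.09, edgeR adjusted p = 3.55e-07), the second largest of the 10. An antisense gene, 4930518J20Rik, overlaps 2.54% of the exon sequence of Tdrd5 and went from 37.0 to 45.5 CPM in control to 0.115 to 0.324 CPM in dsfb. The named library kit is not one that marks strand, so reads in the overlap cannot be assigned.

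Rnf17 (ENSMUSG00000000365, chromosome 14, 56402581 to 56525032, plus strand) encodes a RING and tudor protein that forms granules of its own and restrains piRNA amplification in meiosis. It was at 408, 434 and 346 CPM in control and at 128, 139.9 and 116 CPM in dsfb, lowest in the third animal of each group. The fall was 3.10-fold (log2 -1.63, SE 0.12, edgeR adjusted p = 1.83e-05).

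Tdrkh (ENSMUSG00000041912, chromosome 3, 94413273 to 94434668, plus strand) encodes the tudor and KH protein that holds PIWI proteins at the mitochondrial surface while piRNA ends are trimmed. It was at 122, 119.7 and 89.1 CPM in control and at 86.2, 88.2 and 77.5 CPM in dsfb. The groups did not overlap, but control replicate 3 was within 1 CPM of dsfb replicate 2. The log2 fold change of -0.39 (SE 0.13, edgeR adjusted p = 0.0313) passed, and the call held in 9 of 17 alternatives. It was lost without control replicate 1 or 2 (edgeR adjusted p = 0.0648 and 0.0945), without dsfb replicate 1, 2 or 3 (edgeR adjusted p = 0.0835, 0.0707 and 0.127) and with library size as the only scaling (log2 -0.0037, edgeR adjusted p = 0.983). Without control replicate 3 the value was -0.55 (edgeR adjusted p = 3.89e-06), and scaled to Sertoli markers it was -1.44 (edgeR adjusted p = 2.7e-05). Over all alternatives the adjusted p ran from 3.89e-06 to 0.983. Oaz3, a spermatid gene on the opposite strand, shares 36.7% of the exon sequence of Tdrkh. Oaz3 was at 5.40, 5.78 and 55.0 CPM in control and at 2.01 to 2.79 CPM in dsfb. As for Tdrd5, reads in the overlap cannot be assigned, and their part in the counts of Tdrkh was not tested.

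Stk31 (ENSMUSG00000023403, chromosome 6, 49395604 to 49469501, plus strand) encodes a germ cell protein with a tudor and a kinase domain. It was at 315, 313 and 210.1 CPM in control and at 142, 141 and 108 CPM in dsfb. As for Rnf17 and Tdrkh, the third animal of each group was the lowest. The fall was 2.14-fold (log2 -1.10, SE 0.18, edgeR adjusted p = 0.00126). Tdrd3 (ENSMUSG00000022019, chromosome 14, 87416639 to 87545504, plus strand), the member of general function, was at 80.2, 87.5 and 69.8 CPM in control and at 33.5, 34.3 and 28.2 CPM in dsfb. It fell 2.47-fold (log2 -1.31, SE 0.12, edgeR adjusted p = 7.42e-05), more than the germ cell gene Stk31 in these values, although the ratio of the 2 genes in a library overlapped between the groups (exact two-sided permutation p = 0.2).

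**Figure D2:**
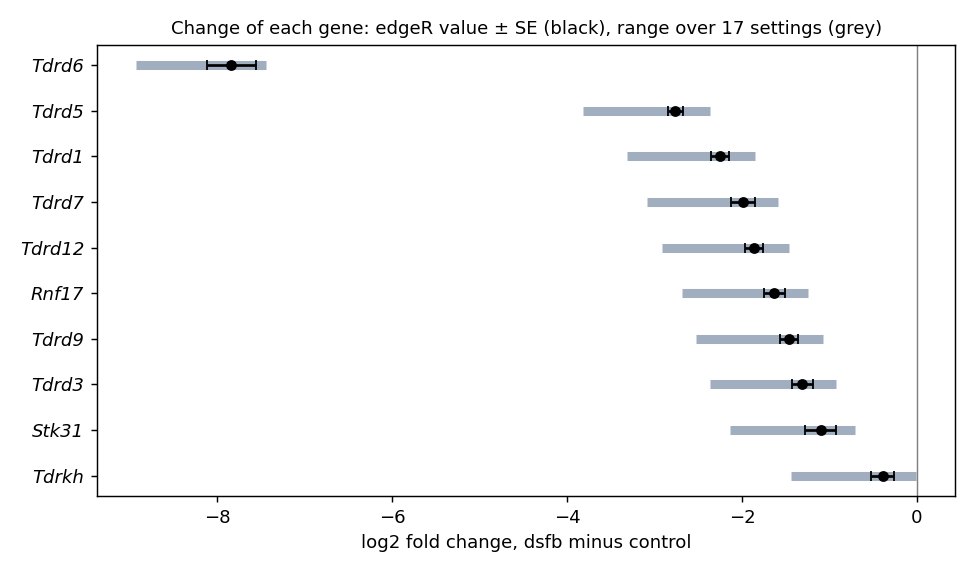
Log2 fold change of each gene, dsfb minus control. Black points are edgeR values with their SE and grey bars span the values over 17 alternative settings; the bars of 9 genes end at -0.71 or lower, that of Stk31 being nearest to 0, and that of Tdrkh reaches -0.0037.

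The falls can be ordered, but not every neighbour in the order was set apart. The ratio of Tdrd6 to Tdrd5 in a library was lower in every dsfb than in every control library (change of the log2 ratio -5.08), and so were the ratios of Tdrd5 to Tdrd1 (-0.50), Tdrd12 to Rnf17 (-0.23) and Stk31 to Tdrkh (-0.71). Each gave an exact two-sided permutation p of 0.1, the smallest that 3 against 3 allows. The ratios of Tdrd1 to Tdrd7 (p = 0.3), Tdrd7 to Tdrd12 (p = 0.9), Rnf17 to Tdrd9 (p = 0.3) and Tdrd9 to Tdrd3 (p = 0.4) overlapped between the groups (exact two-sided permutation tests). In these 9 ratios of neighbours library scaling cancels.

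The control animals themselves differed in a gene-specific way. On the log2 scale of level plus 0.5 CPM, control replicate 3, the animal with the most spermatid transcripts, was above the mean of the other controls by 0.58 for Tdrd6 and 0.45 for Tdrd7. It was within 0.14 for Tdrd1, Tdrd5, Tdrd9 and Tdrd12, and differed by -0.26 for Tdrd3, -0.28 for Rnf17, -0.44 for Tdrkh and -0.58 for Stk31. Tdrd6 and Tdrd7 were thus high, and Stk31 and Tdrkh low, in the same library. This is 1 animal, so no test can be made of it.

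Levels of different genes can be compared only per length, here as RPKM, the CPM divided by the kilobases of merged exons. Tdrd6 was the highest in control at 148 ± 37.7 RPKM (SD, n = 3), followed by Tdrd7 at 102 ± 20, Tdrd1 at 100.2 ± 5.53, Stk31 at 86.3 ± 18.5 and Tdrd9 at 77.0 ± 0.692 RPKM. The ranges of these neighbours overlapped. Rnf17 (63.4 ± 7.23 RPKM) lay below Tdrd9, Tdrd5 (43.7 ± 3.22) and Tdrd12 (43.5 ± 2.68) could not be ordered, and Tdrkh (18.0 ± 2.99) and Tdrd3 (13.0 ± 1.47 RPKM) came last. In control testes Tdrd6 stood above 98.6% of tested genes in this measure, and even Tdrd3 above 73.5%. The length of Tdrd5 is uncertain, since its merged exons hold 6937 bases and its longest transcript 3759. That of Tdrkh is uncertain too: 36.7% of its exon sequence is shared with Oaz3, and how reads there were counted is not known. Its RPKM, its place in either order and its share of the sum carry this limit.

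In dsfb testes the order was another one. Stk31 led at 40.3 ± 6.01 RPKM, ahead of Tdrd9 (28.0 ± 2.76) and Tdrd7 (25.6 ± 0.575 RPKM), whose ranges overlapped. Tdrd1 (21.1 ± 1.77) and Rnf17 (20.5 ± 1.91) overlapped too, as did Tdrkh (13.7 ± 0.921) and Tdrd12 (12.0 ± 1.19 RPKM). Tdrd5 was at 6.45 ± 0.0682, Tdrd3 at 5.27 ± 0.547 and Tdrd6 last at 0.645 ± 0.158 RPKM. Tdrd6 had gone from first to last place.

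**Figure D3:**
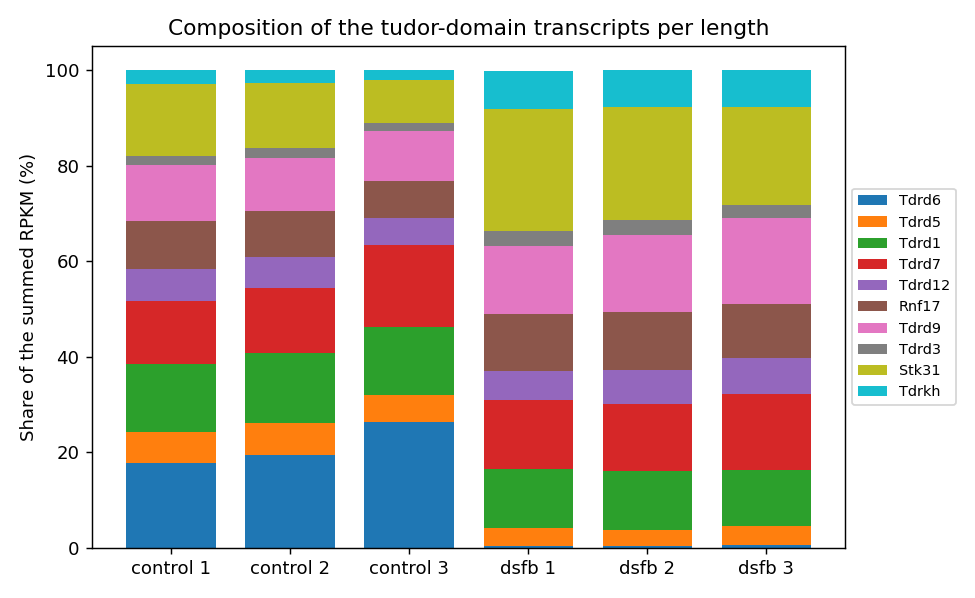
Share of each gene in the summed RPKM of the 10 genes, by library, as stacked bars that add to 100%. Tdrd6 takes 17.8 to 26.3% in control and 0.308 to 0.507% in dsfb, while Stk31 takes 8.99 to 14.9% and 20.5 to 25.4% and Tdrkh 2.01 to 3.04% and 7.75 to 8.12%.

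The summed level was 655, 708 and 722 RPKM in control and 173, 185 and 163 RPKM in dsfb, 4.01 times lower (exact two-sided permutation p = 0.1, the smallest possible). With library size as the only scaling it was 3.04 times lower. Without Tdrd6 the sum was 547 ± 20.9 RPKM in control and 173 ± 11 in dsfb, 3.17 times lower (exact p = 0.1). As shares of the sum, Tdrd6 went from 21.1 ± 4.51 to 0.376 ± 0.114% and Tdrd5 from 6.29 ± 0.482 to 3.73 ± 0.242%, while Stk31 went from 12.5 ± 3.10 to 23.2 ± 2.50%, Tdrd9 from 11.1 ± 0.537 to 16.2 ± 1.78% and Tdrkh from 2.6 ± 0.529 to 7.88 ± 0.204% (n = 3, exact p = 0.1 for each). The share of Tdrd7 was 14.6 ± 2.27 and 14.8 ± 0.968% (exact p = 1). A share rises when another member falls, so a higher share is not a higher level.

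Ddx4 encodes the vasa helicase, a germ granule protein made through most stages of the male germ line, and was used as a reference in the same library. It fell itself, from 889 ± 46.2 to 187 ± 12.1 CPM (log2 -2.25, SE 0.10, edgeR adjusted p = 1.27e-06). Relative to Ddx4, Tdrd1 was at 0.572, 0.609 and 0.664 in control and at 0.604, 0.634 and 0.603 in dsfb. The dsfb values lay within the control range. Tdrd7 overlapped as well, at 0.381 to 0.587 and 0.511 to 0.593. Tdrd6 stayed apart, at 0.919 to 1.59 and 0.0197 to 0.0337, and Tdrd5 was at 0.326 to 0.353 and 0.228 to 0.258.

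The other members were all higher relative to Ddx4 in dsfb, with no overlap. Tdrkh was at 0.106 to 0.136 in control and 0.446 to 0.453 in dsfb, Stk31 at 0.25 to 0.352 and 0.624 to 0.737, and Tdrd3 at 0.083 to 0.0938 and 0.163 to 0.176. Rnf17, Tdrd9 and Tdrd12 changed by 0.62, 0.78 and 0.39 on the log2 scale. That makes 6 of 10 higher and 2 of 10 lower without overlap, against 78.1% and 13.1% of all tested genes, so a rise against Ddx4 is common and is not particular to these genes.

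**Figure D4:**
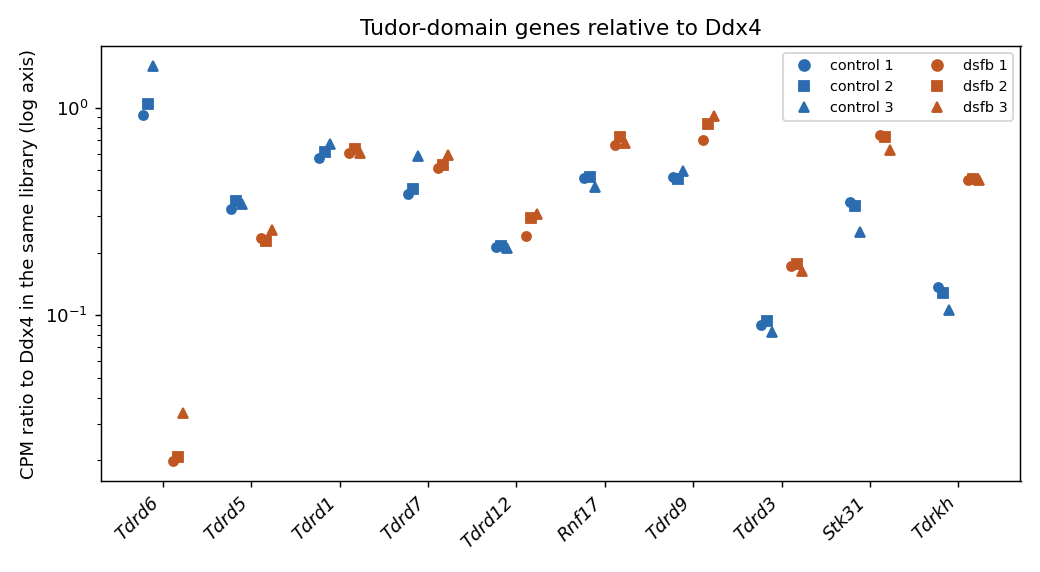
CPM of each gene divided by that of Ddx4 in the same library (log axis), with control animals in blue and dsfb animals in orange. Tdrd1 lies at 0.572 to 0.664 in control and 0.603 to 0.634 in dsfb, Tdrd6 lies at 0.0337 or lower in dsfb, and Tdrkh rises from at most 0.136 to at least 0.446.

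Of the 17 listed PIWI proteins and germ granule partners, all tested, 11 fell and 3 rose (36.2% of all tested genes fell and 30.7% rose), with a median log2 fold change of -1.04. Piwil1, the PIWI protein of pachytene cells and a ligand of tudor domains, fell 57.1-fold, from 1109.6 ± 129.6 to 19.4 ± 2.37 CPM (SD, n = 3). Its log2 change of -5.83 (SE 0.16, edgeR adjusted p = 1.95e-07) was smaller than that of Tdrd6, and the ratio of Tdrd6 to Piwil1 was at 0.827 to 1.07 in control and at 0.212 to 0.265 in dsfb. Ddx25, a helicase of the chromatoid body, fell 13.6-fold, Pld6, the mitochondrial nuclease of piRNA processing, 6.95-fold, and Mael, a gene of transposon silencing, 5.65-fold. Piwil2, the partner of Tdrd1, was given after its values were seen: it fell 1.83-fold, from 580.1 ± 15.8 to 316 ± 5.10 CPM. The 3 that rose, also named after their values were seen, were Piwil4 (2.22-fold, from 2.53 ± 0.425 to 5.63 ± 1.31 CPM), Fkbp6 (1.47-fold) and Wdr77 (1.25-fold, edgeR adjusted p = 0.0291). Wdr77 encodes a subunit of the enzyme that methylates the arginines tudor domains bind. It shares 28.7% of its exon sequence with Gm42890 on the same strand. Prmt5, named for the same reason, encodes another subunit of that enzyme and fell 1.35-fold (edgeR adjusted p = 0.0165). Scaled to Sertoli markers none of the 17 rose and 16 fell. At that setting only 267 of all 19826 tested genes rose and 12701 fell, so the lack of rises is not particular to this list.

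Tudor-domain genes that act outside germ granules held calls in both directions. Of 22 such genes listed, most of them for chromatin proteins, 8 rose, 5 fell and 9 were not called, against 30.7% of all tested genes that rose and 36.2% that fell, with a median log2 fold change of 0.22. Phf1, a Polycomb partner, fell 5.99-fold, from 124 ± 30.5 to 20.6 ± 1.60 CPM, but 39.3% of its exon sequence is shared with Cuta on the opposite strand. Uhrf1, which maintains DNA methylation, fell 1.91-fold and Mtf2, another Polycomb partner, 1.56-fold. Arid4a, a chromatin gene with the same p as Mtf2 to 3 digits (edgeR adjusted p = 0.000493), rose 1.61-fold, from 57.7 ± 4.97 to 93.0 ± 4.29 CPM. The histone demethylase gene Kdm4b rose 1.89-fold, from 60.8 ± 4.47 to 115 ± 3.50 CPM. The split depended on scaling: 14 rose and 2 fell with library size as the only scaling, and 0 rose and 19 fell when libraries were scaled to Sertoli markers. Of all 19826 tested genes, 8936 rose and 5732 fell with library size only, and 267 rose and 12701 fell with Sertoli scaling. These shifts of the split are therefore not particular to the list.

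**Figure D5:**
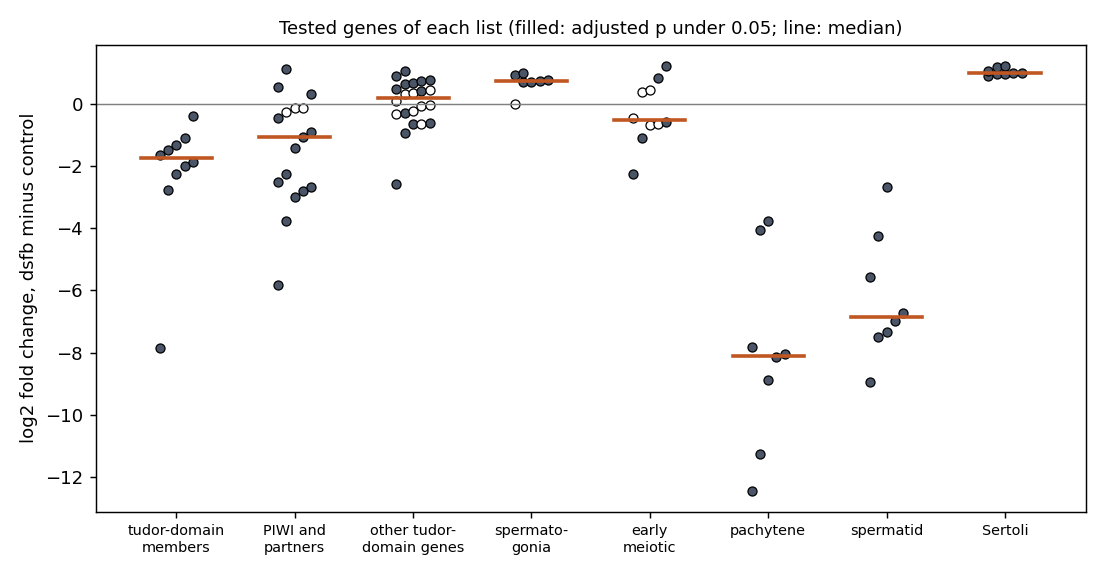
Log2 fold change (dsfb minus control) of every tested gene in 8 lists, with filled points for adjusted p under 0.05, open points for genes not called and an orange line at the median. The medians are -1.74 for the 10 members, -1.04 for PIWI genes and partners, 0.22 for other tudor-domain genes, -8.11 for pachytene, -6.86 for spermatid and 1 for Sertoli markers.

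Markers of the germ cell stages did not all move in the direction of these genes. All 8 tested pachytene markers fell (4609 to 6202 CPM summed in control, 27.8 to 33.3 CPM in dsfb, median log2 fold change -8.11), and so did the 8 tested of 9 spermatid markers (76.2 to 789.7 and 10.4 to 12.1 CPM, median -6.86). Tdrd6 lay near these medians, and the other 9 members lay far above them, at -2.76 to -0.39. The spermatid median leans on control replicate 3, where the markers summed to 789.7 CPM against 76.2 and 79.2 in replicates 1 and 2. Against replicates 1 and 2 alone, the 8 spermatid markers changed by -4.22 to -0.42 and Tdrd6 by -7.47 (log2 of level plus 0.5 CPM). The added 0.5 CPM shrinks the change of markers at low levels. In replicates 1 and 2 the highest of these markers was at 19.5 CPM, against 822 and 969.7 CPM for Tdrd6. From such levels no marker could show a change as large as that of Tdrd6 on that scale. The comparison therefore cannot tell whether Tdrd6 fell more than the spermatid markers. Of the 10 early meiotic and general germ cell markers, Ddx4 among them, 3 fell and 2 rose (2599 to 4094 and 2284 to 2611 CPM, median -0.51). Over all tested genes 36.2% fell and 30.7% rose, so the early meiotic counts are not above those shares. Of 7 spermatogonial markers 6 rose (239.8 to 335 and 508 to 571 CPM, median 0.74). No marker was at 0 in all libraries, and the part of the cell make-up in the falls was not tested. Scaled to the early meiotic markers, 9 members were still called lower, all but Tdrkh, against 5418 of all 19826 tested genes.

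Mybl1 and Tcfl5, transcription factor genes of pachytene spermatocytes, fell as well. Mybl1 was at 220.5, 233 and 146 CPM in control and at 96.0, 94.3 and 80.7 CPM in dsfb, a 2.21-fold fall (log2 -1.15, SE 0.18, edgeR adjusted p = 0.000936). Tcfl5 was at 361, 398 and 438 CPM in control and at 69.8, 71.7 and 64.7 CPM in dsfb, a 5.80-fold fall (log2 -2.54, SE 0.10, edgeR adjusted p = 9.43e-07). Like Tdrd6 and Tdrd7, Tcfl5 was highest in control replicate 3, while Mybl1, like Stk31, was lowest there among the controls. Relative to Mybl1 in the same library, the members changed by -6.72 (Tdrd6), -1.64 (Tdrd5), -1.13 (Tdrd1), -0.86 (Tdrd7), -0.74 (Tdrd12), -0.51 (Rnf17), -0.35 (Tdrd9), -0.19 (Tdrd3), 0.03 (Stk31) and 0.74 (Tdrkh) on the log2 scale. For Tdrd9, Tdrd3 and Stk31 this ratio overlapped between the groups. How many of all tested genes are set apart in the ratio to Mybl1 was not computed, so a separation cannot be called particular to the members.

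The genes most like the 2 extreme members were found by Euclidean distance over the 6 libraries of log2(CPM + 1), after subtraction of the gene's control mean, among 14134 genes. For Tdrd6 they were Rsph6a (distance 0.195), a radial spoke gene of the sperm tail, Hspb9 (0.262), a small heat shock gene of the testis, and March10 (0.329), a ubiquitin ligase gene of spermatids. Rsph6a was at 171, 195 and 276 CPM in control and at 0.102, 0.115 and 0.378 CPM in dsfb. The log2 fold changes of the 3 genes were -10.04, -9.01 and -9.02, larger falls than the -7.84 of Tdrd6. In dsfb the 3 genes were at 0.102 to 1.03 CPM, where the added 1 CPM shrinks a change, so their likeness to Tdrd6 leans on it. For Tdrkh the nearest genes were Ttc27 (0.0668), Zfp329 (0.0716) and Gtf2e1 (0.0781), the last a general transcription factor gene. Their log2 fold changes were -0.41, -0.39 and -0.41.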

How the data were processed

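Testis RNA was extracted with TRIzol and, per the labels, made into libraries with the NEBNext Ultra RNA kit. Raw read counts per gene, 1 column per library, were deposited by the authors; alignment was to mm10 by STAR 2.6.0, per the submitters' processing notes. Details of read counting (tool, annotation, strand) were not given in the sources used here. Symbols, positions and exons came from GENCODE M21, in which 55227 of 55487 identifiers were found. The members and gene lists were chosen with earlier results of these data known.

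Counts were tested with edgeR 4.0.16 in R 4.3.3 (filterByExpr, TMM, glmQLFit and glmQLFTest, prior count 0.125, group as the only term), adjusted by Benjamini-Hochberg over 19826 genes. Each SE is the size of the log2 fold change divided by the root of its F statistic. Library sizes behind CPM were scaled by TMM. Animals are separate per the labels.

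Genes named are the members, Hormad1, Hormad2, Mybl1, Tcfl5, the 4 genes of smallest p in each of the partner and other tudor lists (5 in the latter, where the last had the same p to 3 digits), and the 3 nearest profiles of the members with the largest and smallest change. Ddx4, genes that overlap a named gene, and those said to be named after their values were seen stand outside this rule. Promoters are RefSeq's (GRCm38.p6). Alternatives were other scalings, filters, DESeq2 1.42.0, limma-voom (limma 3.58.1), thinning, a replicate block and leaving out each library. Replicates differed by more than sampling noise in every pair (chi-square over degrees of freedom 3.82 to 65).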

Additional observations from a re-analysis of the deposited data

How the results depend on the processing

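Of the 10 members, 9 kept direction and call under all 17 alternatives, with log2 fold changes of -8.93 to -7.44 for Tdrd6, -3.82 to -2.36 for Tdrd5 and -2.14 to -0.71 for Stk31. Tdrkh kept its direction and lost its call in 8 of 17 (log2 -0.12 with upper-quartile scaling, -0.17 scaled to early meiotic markers). Members called lower numbered 9 to 10 when each library was left out in turn, and 0 were called higher. Over all genes 6080 rose and 7176 fell; leaving out each library gave 4940 to 6596 and 6889 to 7621. Scaling to Sertoli markers gave 267 and 12701 and shifted the all-gene median by -1.06 (log2). Library size only, upper quartile and early meiotic scaling moved it by 0.40, 0.28 and 0.20, with 60.9, 57.2 and 54.2% of calls higher against 45.9%; with no filter these were -0.30 and 35.5%. The fall of the summed RPKM was 3.04-fold with library size only and 3.89 to 4.14-fold with a library left out. For the other tudor-domain genes, rises numbered 14 with library size only, 13 with upper quartile and 0 with Sertoli scaling, and falls 2 with library size only, 3 with early meiotic and 19 with Sertoli scaling, settings chosen after seeing the data; PIWI partners had 0 rises with Sertoli scaling. The cause of these shifts was not tested beyond the change of scale. Without control replicate 3, 13 partners fell and 3 rose.

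With the replicate number as a block 13431 genes were called against 13256, 12933 of them in both, and all 10 members were called lower. The correlation of same-numbered deviations was 0.071, 0.061 and 0.116; every sample correlated best with its own number, a hint from the data and not from the design. Replicate 3 of both groups also had the fewest haemoglobin transcripts (11.6 CPM summed against 213 and 208 in control, 35.6 against 318 and 295 in dsfb). Its mitochondrial share was the lowest too (1.3 against 2.73 and 2.58% in control, 3.17 against 4.17 and 4.14% in dsfb). The cause was not tested. Depth limits Tdrd6 in dsfb, which rests on 70 to 108 reads a library.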
